A study of Mus musculus with 4 samples.

Results

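Smooth muscle cells were examined among the stromal cells of the mouse embryonic gut at E12.5. A cell was counted as a smooth muscle cell when its Acta2 level was at least 10 UMIs per 10000 and at least 2 of the 5 genes Myh11, Cnn1, Actg2, Mylk and Lmod1 were detected. A UMI (unique molecular identifier) marks 1 captured transcript, so that a UMI count is a count of molecules. Cells with a UMI of Upk3b, a mesothelial gene, or of Sox10, a gene of enteric neural progenitors and glia, were not counted. This rule took in 5736 of the 23188 cells that had at least 1000 detected genes and under 10% mitochondrial UMIs. The 9070 comparison cells came from the same libraries and held no UMI of the 5 genes, of Upk3b or of Sox10. A further 6104 intermediate cells met neither definition, and 2278 cells held Upk3b or Sox10.

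The cells came from 4 libraries of untreated embryos of the EYFP (C57BL/6) strain, 2 of small intestine (SI) and 2 of large intestine with the cecum (LI). Per the labels, there were 2 experiments with several embryos in each, and no label ties a library to a single embryo. Live cells had been sorted as positive for YFP and β1 integrin, and the sort had removed leukocytes (CD45), erythroid cells (Ter119), endothelium (CD31) and epithelium (EpCAM). All 4 libraries share this genotype, sort and stage, so that every comparison is between regions or between cells of 1 library. No reporter or Cre line in these embryos marks smooth muscle.

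Smooth muscle of the gut differentiates from the mesenchyme that surrounds the epithelial tube, and the circular layer of the outer muscle coat appears first. Hedgehog ligands from the epithelium and BMP signals pattern this ring, and the cofactor myocardin with serum response factor (SRF) switches on genes of the contractile apparatus through CArG boxes. At mid-gestation the mesenchyme also holds fibroblast precursors, mesothelium, and migrating enteric neurons and glia.

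The depth and the number of smooth muscle cells differed between libraries, and LI replicate 1 stood apart on both. It held 6438 kept cells with a median of 4278.5 UMIs, against medians of 8518 to 8932 in the other 3 libraries. Only 143 of its cells were smooth muscle cells, and together they held 737907 UMIs, against 8943136 to 28222396 UMIs in the smooth muscle cells of the other libraries. Any pair of libraries had 8 to 15 cell barcodes in common.

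Smooth muscle cells made up 2.22% of kept cells in LI replicate 1 (95% Wilson interval 1.89 to 2.61%), and 17.9% in LI replicate 2 (16.8 to 19%). Their share was 31.7% in SI replicate 1 (30.4 to 32.9%) and 46.1% in SI replicate 2 (44.9 to 47.3%). Both SI libraries were above both LI libraries, and the 2 libraries of a region differed from each other by more than their intervals, which cover counting error only. The mean share was 38.9% ± 10.2 in SI and 10.0% ± 11.1 in LI (SD, n = 2 each), a difference of 28.8 percentage points. In an exact permutation test (2-sided) this gave p = 0.333, the smallest value that 2 against 2 libraries allow. When the rule was applied after every cell had been thinned to 3000 UMIs, the difference was 23.0 percentage points.

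**Figure D1:**
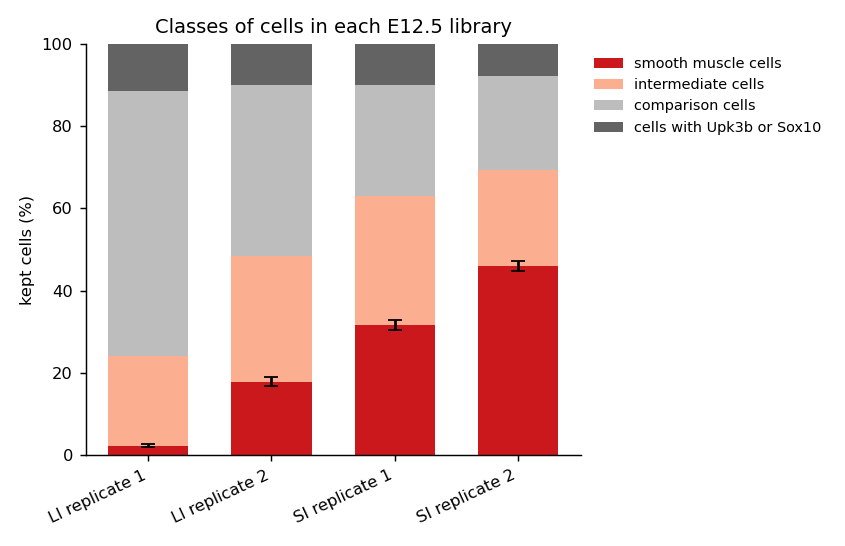
Share of kept cells (%, y axis) in the 4 classes, one bar per library, with the 95% Wilson interval of the smooth muscle share. The smooth muscle share was 2.22% and 17.9% in the LI libraries and 31.7% and 46.1% in the SI libraries.

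The levels of the genes in the rule chose the cells, and they are given as a description. Acta2, the smooth muscle α-actin gene (mm10, chr19:34241090-34255590, minus strand), was at 3380 and 3219 CPM (counts per 1000000 UMIs of the class) in smooth muscle cells of the 2 LI libraries and at 2939 and 4405 CPM in those of the 2 SI libraries. Values of 4 libraries are given in this order, LI before SI and replicate 1 before replicate 2. In comparison cells, which were not selected on Acta2, it was at 115, 106, 91.1 and 104 CPM, and it was detected in 16.2 to 17.5% of them at 3000 UMIs. In cells with at least 2 Sox10 UMIs, which should lack Acta2, 1.72 to 13.4% had an Acta2 UMI at that depth. Median depths before thinning were 13040 to 22203 UMIs in the Sox10 cells and 4040 to 8862 UMIs in the comparison cells.

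Of the 5 further genes, Mylk (myosin light chain kinase) was detected in 69.2% of smooth muscle cells in LI replicate 1 and in 94.0 to 97.7% in the other libraries. Actg2, the enteric γ-actin gene, was detected in 80.4 to 97.2% and Cnn1 (calponin) in 58.7 to 73.6%. Myh11, the smooth muscle myosin heavy chain that marks later differentiation, was found in 23.1% and 51.3% of smooth muscle cells in the LI libraries and in 45% and 73.4% in the SI libraries, replicate 1 first. Lmod1 (leiomodin, an actin nucleator) was found in 26.6 to 40.5%. All 5 genes together were detected in 2.80%, 18.5%, 12.47% and 31.3% of smooth muscle cells. None of these shares was taken at equal depth, and smooth muscle cells of LI replicate 1 were the shallowest (median 4630 UMIs). In cells thinned to 3000 UMIs, Actg2 was at 68.2%, 69.6%, 69.1% and 81.8% and Cnn1 at 46.2%, 38.5%, 35.2% and 49.4%. Lmod1 was then at 19.7%, 17.7%, 12.1% and 18.8%. Mylk (53.0%, 67.3%, 72.4% and 82.6%) and Myh11 (14.4%, 32.1%, 26.8% and 55.3%) stayed lowest in LI replicate 1. All 5 genes together were not counted at that depth. Acta2 and Actg2 encode nearly identical proteins, so that reads within their shared coding sequence may not be assignable to 1 of them.

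The threshold on Acta2 did not sit in a gap. In SI replicate 2, 77 smooth muscle cells lay at 10 to 12 Acta2 UMIs per 10000, and 87 cells with at least 2 of the 5 genes lay just under it at 8 to 10. The cells inside had 426 CPM of Tagln and 299 CPM of Myl9, and the cells outside had 413 and 271 CPM. In SI replicate 1 the 106 cells inside had 225 CPM of Tagln and 349 CPM of Myl9, against 210 and 337 CPM in the 92 cells outside. In LI replicate 2 the 54 cells inside had 578 and 461 CPM, against 334 and 424 CPM in the 51 cells outside. LI replicate 1 held 19 cells on each side, and there Tagln was lower inside (473 CPM) than outside (709 CPM), with Myl9 at 705 and 591 CPM.

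Several marker lists of other cell types were low in smooth muscle cells, whereas the fibroblast list was not. It summed to 1182, 1433, 937 and 1300 CPM in smooth muscle cells and 906, 1452, 856 and 1455 CPM in comparison cells. It was higher in smooth muscle cells in replicate 1 of both regions and lower in replicate 2 of both. The summed level of the enteric neural list (8 genes) was 4.07 to 20.7 CPM in smooth muscle cells and 165 to 609 CPM in comparison cells, none of which had a Sox10 UMI. Between 3.07% and 11.7% of comparison cells had at least 2 UMIs of this list, against 0 to 1.64% of smooth muscle cells. The mesothelial list (8 genes) summed to 3.51 to 20.3 CPM in smooth muscle and 19.3 to 38.2 CPM in comparison cells. The endothelial list summed to 1.15 to 5.42 CPM, the immune list to 1.36 to 1.90 CPM and the skeletal muscle list to at most 0.248 CPM in smooth muscle cells. The cardiac list summed to 20.3, 8.05, 4.85 and 16.5 CPM in smooth muscle cells and 8.80, 7.16, 2.66 and 6.22 CPM in comparison cells. It was thus low but higher in smooth muscle cells of every library. The erythroid list summed to 2.81 to 4.85 CPM in smooth muscle cells. The epithelial list summed to 13.3 to 115 CPM in smooth muscle cells, against 27.8 to 123 CPM in comparison cells.

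The pericyte list (Rgs5, Kcnj8, Abcc9, Notch3, Pdgfrb, Cspg4, Higd1b and Ndufa4l2) behaved differently in LI replicate 1. It summed to 137 CPM in smooth muscle cells of that library against 66.5 CPM in its comparison cells, whereas in the other libraries it summed to 81.3, 51.9 and 124 CPM in smooth muscle cells and 89.2, 95.1 and 167 CPM in comparison cells. No UMI of Higd1b was found in either class. The rule cannot tell visceral from vascular smooth muscle, and the part of vessel wall cells in LI replicate 1 was not tested.

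Summed UMI counts of smooth muscle and comparison cells were compared over the 4 libraries with edgeR's quasi-likelihood test, which kept library as a blocking factor. Of 13023 genes tested, 838 (6.43%) were higher and 1340 (10.3%) were lower in smooth muscle cells at an adjusted p under 0.05, which is 16.7% in all. When cells with at least 2 UMIs of an enteric neural, mesothelial, endothelial, immune or erythroid list were left out of both classes, 628 genes (4.98%) were higher and 672 (5.32%) lower among 12620 tested. These shares are the background of every later count made with cells of other types left out. Without LI replicate 1 the counts were 1190 higher and 1782 lower. Leaving out LI replicate 2 gave 554 and 867, leaving out SI replicate 1 gave 430 and 635, and leaving out SI replicate 2 gave 520 and 630. The 8 genes of the rule were not tested.

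Most contractile genes tested outside the rule were also higher in smooth muscle cells. Of 39 listed contractile and cytoskeletal genes 38 were tested, and 26 rose, 1 fell and 11 were not called, with a median log2 fold change of 1.02 against -0.01 over all genes tested. Since many of these genes are known to be expressed together with those of the rule, this count describes the class and is not independent evidence of its identity. With cells of other types left out, 24 rose and 1 fell, at a median of 0.87.

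Tagln (transgelin or SM22α, an actin-binding protein; chr9:45929619-45936058) stood at 1472, 918, 478 and 1078 CPM in smooth muscle cells and 188, 213, 80.1 and 125 CPM in comparison cells. Every smooth muscle value lay above every comparison value, and the log2 fold change was 2.73 ± 0.15 (SE, adjusted p = 2.41e-05). Myl9, the regulatory light chain of smooth muscle myosin (chr2:156775420-156781658), stood at 1179, 976, 622 and 1166 CPM against 201, 159, 73.6 and 89.2 CPM. Its groups did not overlap either, and its log2 fold change was 3.03 ± 0.19 (adjusted p = 4.42e-05).

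The tropomyosin genes, whose products lie along actin filaments, rose by different amounts. Tpm2 was at 468 ± 103 CPM in smooth muscle and 117 ± 15.7 CPM in comparison cells (SD, n = 4), a log2 fold change of 2.04 ± 0.07 (adjusted p = 3.23e-06). Tpm1 was at 2284 ± 618 and 926 ± 211 CPM, a log2 fold change of 1.33 ± 0.06 (adjusted p = 8.72e-06). Nexn (nexilin, an actin-binding protein) rose by 2.57 ± 0.11 (adjusted p = 8.72e-06), from 18.9 to 34.0 CPM in comparison cells to 116 to 176 CPM in smooth muscle cells. Pdlim3, an α-actinin-binding protein that the rule for named genes left out for its low level, had the highest fold change of the list at 3.49 ± 0.28, with 40.7 to 77.7 CPM against 3.27 to 8.54 CPM.

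Des (desmin, the intermediate filament of muscle) was the 1 gene of this list that fell. It was at 117, 65.3, 14.4 and 33.2 CPM in smooth muscle cells and 112, 98.0, 30 and 61.4 CPM in comparison cells. Smooth muscle cells were thus lower in 3 of 4 libraries and level in LI replicate 1, with a log2 fold change of -0.62 ± 0.14 (adjusted p = 0.0188). This call was lost when any of the other 3 libraries was left out (adjusted p 0.0701 without LI replicate 2, 0.128 without SI replicate 1 and 0.103 without SI replicate 2), with log2 fold changes of -0.64 to -0.47. Vim (vimentin) and Synm (synemin), named here after their values were seen, were not called, at log2 fold changes of -0.20 and -0.53.

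CArG boxes, the binding motif of SRF, were looked for by their strict consensus in the 250 bases upstream of each RefSeq transcription start (build GRCm38.p6, a motif that reads alike on both strands). A match was found in 482 of 32851 windows (1.47%), and in 147 of the 9713 tested genes that had a window (1.51%). Of the genes called higher in smooth muscle cells, 32 of 600 (5.33%) held one, and of those called lower, 11 of 949 (1.16%). Among the contractile genes that rose, 6 of 23 (26.1%) held one, and among the other genes of that list 1 of 10 did. Of the rule genes, Acta2, Cnn1, Mylk and Lmod1 had a window, and none of these windows held a strict match. These shares are descriptions without a test. The boxes of 4 contractile genes that rose are shown as examples, in capitals, on the strand of the gene:
Myl9, chr2:156775273-156775342, plus strand: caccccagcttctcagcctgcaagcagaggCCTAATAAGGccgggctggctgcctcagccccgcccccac
Myl6, chr10:128493020-128493089, minus strand: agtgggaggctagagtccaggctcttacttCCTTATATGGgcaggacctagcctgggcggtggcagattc
Cnn2, chr10:79988514-79988583, plus strand: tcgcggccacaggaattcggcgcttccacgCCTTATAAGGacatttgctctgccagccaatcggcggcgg
Vcl, chr14:20929148-20929210, plus strand: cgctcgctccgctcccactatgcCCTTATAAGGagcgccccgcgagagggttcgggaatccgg
The first base of the box lay 161, 50, 56 and 227 bases before the RefSeq start to which the window belongs, for Myl9, Myl6 (a myosin light chain), Cnn2 (a calponin) and Vcl (vinculin, an adhesion protein), in that order. The window of Myl6 belongs to an internal start and lies within the gene as GENCODE gives it (chr10:128490860-128494145, minus strand). Myl6, Cnn2 and Vcl rose by log2 fold changes of 1.58, 1.23 and 1.35.

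**Figure D2:**
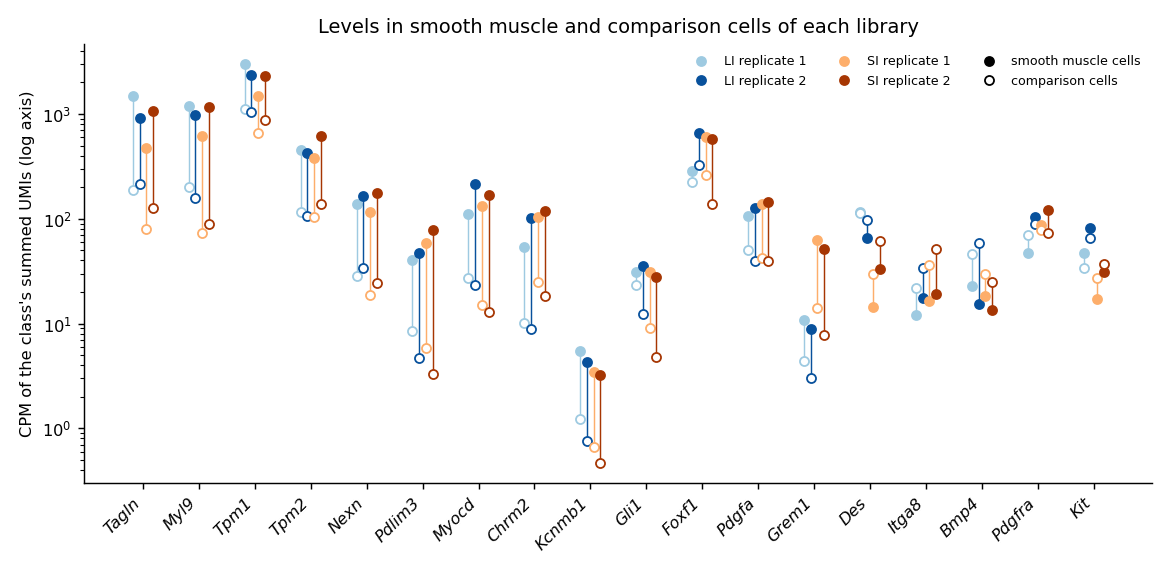
Level of 18 genes (CPM, log axis) in smooth muscle cells (filled) and comparison cells (open) of each library, joined by a line. For Tagln, Myl9, Nexn, Myocd and Pdgfa every filled point lies above every open point, whereas Des is lower in smooth muscle cells in 3 of 4 libraries and Pdgfra and Kit change sides between libraries.

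Among 33 listed transcription factors of muscle and gut mesenchyme 30 were tested, and 5 rose and 9 fell, at a median log2 fold change of -0.15, where 6.43% of all genes were higher and 10.3% lower. With cells of other types left out, 3 rose and 9 fell. Myocd (myocardin, the SRF cofactor that drives smooth muscle genes; chr11:65176561-65269989) stood at 111, 214, 133 and 169 CPM in smooth muscle cells and 27.3, 23.5, 15.1 and 12.9 CPM in comparison cells. The groups did not overlap, and at a log2 fold change of 3.14 ± 0.22 (adjusted p = 7.25e-05) it had the highest fold change among genes with an average log2 CPM over 5 and 1 direction in all libraries. Srf itself rose by 0.35 ± 0.05 (adjusted p = 0.00366), from 66.2 ± 9.44 to 81.3 ± 11.2 CPM (SD, n = 4). Tcf21, a factor of visceral mesenchyme, rose by 0.86 ± 0.11 (adjusted p = 0.00155). Hic1, a factor of quiescent mesenchymal progenitors, fell by 0.90 ± 0.12 on the log2 scale (adjusted p = 0.00165). Elk3, an SRF partner of the ternary complex family, fell by 0.60 ± 0.09 (adjusted p = 0.00282), and Hand2, a factor of gut mesenchyme and enteric neurons, fell by 0.71 ± 0.10 (adjusted p = 0.00271). The call of Hand2 was lost with cells of other types left out, at a log2 fold change of -0.35 (adjusted p = 0.102).

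Some genes of calcium handling, ion channels and receptors of muscle were higher as well. Of 33 listed 29 were tested, and 12 rose, 2 fell and 15 were not called, at a median of 0.29 (all genes: 6.43% higher, 10.3% lower). Chrm2, the muscarinic acetylcholine receptor that is most abundant in gut muscle, stood at 54.2, 102, 103 and 119 CPM in smooth muscle cells and 10.1, 8.95, 25.1 and 18.1 CPM in comparison cells. Its groups did not overlap (log2 fold change 2.73 ± 0.22, adjusted p = 0.000145). Kcnmb1, the β1 subunit of the large-conductance calcium-activated potassium channel, rose by 2.51 ± 0.25 (adjusted p = 0.000433) at a low level of 3.26 to 5.42 CPM. Atp2b4, a plasma membrane calcium pump, rose by 0.77 ± 0.10 (adjusted p = 0.00123). Pde3a, a phosphodiesterase, fell by 0.75 ± 0.12 (adjusted p = 0.00408) and Itpr2, an inositol trisphosphate receptor, fell by 1.03 ± 0.28 (adjusted p = 0.0422). The call of Pde3a was lost without SI replicate 1 (-0.65, adjusted p = 0.0637), and that of Itpr2 without LI replicate 2, SI replicate 1 or SI replicate 2 (-1.27 to -0.56, adjusted p 0.0618 to 0.286) and with cells of other types left out (adjusted p = 0.0523).

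Other genes with the highest fold changes upward were not on these lists. Aldh1a1, a retinaldehyde dehydrogenase, was at 5.42, 84.8, 66.7 and 221 CPM in smooth muscle cells and 3.11, 6.64, 12.8 and 23.2 CPM in comparison cells, a log2 fold change of 3.07 ± 0.25 (adjusted p = 0.000153). In LI replicate 1 its level in smooth muscle cells rested on 4 UMIs and lay within the range of the comparison cells, and without that library the log2 fold change was 3.16 (adjusted p = 0.000117). Mgll, the monoglyceride lipase that degrades an endocannabinoid, rose by 2.79 ± 0.20 (adjusted p = 7.46e-05), with 71.8 to 106 CPM against 8.94 to 19.6 CPM. Plxna2, a semaphorin receptor, rose by 2.13 ± 0.18 (adjusted p = 0.000184). Angptl6, an angiopoietin-like secreted protein, rose by 2.44 ± 0.25 (adjusted p = 0.000483), and Mtcl1, a microtubule crosslinking factor, by 2.38 ± 0.20 (adjusted p = 0.000181). Gm13889 rose by 2.08 ± 0.32 (adjusted p = 0.00358). Its exons share bases with those of Gm27027 on the same strand, so that its count is uncertain.

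Most of the listed hedgehog pathway genes were higher in smooth muscle cells. All 14 listed genes were tested, and 9 rose, 1 fell and 4 were not called, at a median log2 fold change of 0.80, where 16.7% of all genes were called. With cells of other types left out, 7 rose and 2 fell (Boc and Gas1, a co-receptor, at -1.27 and -0.45), at a median of 0.57. Gli1, the transcription factor induced by hedgehog signalling (chr10:127329882-127341974), was at 31.2, 35.2, 30.8 and 28.1 CPM in smooth muscle cells and 23.1, 12.3, 9.02 and 4.82 CPM in comparison cells. It differed little among the smooth muscle cells of the 4 libraries, and the groups did not overlap (log2 fold change 1.73 ± 0.24, adjusted p = 0.00221). Ptch1, the hedgehog receptor and a target of the pathway, was at 215, 345, 254 and 257 CPM against 173, 184, 139 and 80.9 CPM, again without overlap (1.03 ± 0.18, adjusted p = 0.00646). Gli3, the main repressor of the pathway, rose by 0.65 ± 0.07 (adjusted p = 0.00051).

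The forkhead factors downstream of hedgehog in gut mesenchyme rose as well. Foxf1 was at 289, 654, 601 and 583 CPM against 223, 329, 261 and 138 CPM (1.25 ± 0.23, adjusted p = 0.00751), with the value of LI replicate 1 inside the range of the comparison cells. Without SI replicate 1 this call was lost at an unchanged fold change (1.26, adjusted p = 0.0568). Foxf2 was at 46.1, 112, 95.1 and 79.9 CPM against 31.7, 31.9, 34.6 and 15.9 CPM, without overlap (1.73 ± 0.21, adjusted p = 0.00106). Boc, a hedgehog co-receptor, was the 1 listed gene that fell, by 1.13 ± 0.15 on the log2 scale (adjusted p = 0.00158).

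BMP pathway genes moved in both directions, and more of them fell than rose. Of 26 tested genes (28 listed) 3 rose, 7 fell and 16 were not called, at a median of -0.24, against 6.43% higher and 10.3% lower among all genes. When cells of other types were left out, 1 rose and 7 fell. Grem1 (gremlin, a secreted BMP antagonist; chr2:113746164-113758646) was at 10.8, 8.95, 62.1 and 50.9 CPM in smooth muscle cells and 4.4, 3, 14 and 7.70 CPM in comparison cells. It was higher in smooth muscle cells of all 4 libraries (2.23 ± 0.19, adjusted p = 0.000191), although the comparison cells of SI replicate 1 lay above the LI smooth muscle cells. Bmp4, a BMP ligand of gut mesenchyme, was at 23.0, 15.2, 18.2 and 13.3 CPM against 46.2, 58.2, 29.6 and 25 CPM. Its groups did not overlap, and it fell by 1.09 ± 0.19 (adjusted p = 0.00591). Bmp7, another ligand, fell by 1.61 ± 0.16 (adjusted p = 0.000392) and Msx1, a BMP target, by 2.09 ± 0.34 (adjusted p = 0.00435), both at low levels. Bmp5 rose by 0.76 ± 0.15 (adjusted p = 0.0097), and this was not called with cells of other types left out (0.50, adjusted p = 0.0526). Acvr1, a type I receptor, rose by 0.28 ± 0.08 (adjusted p = 0.0497), and without any 1 of LI replicate 2, SI replicate 1 and SI replicate 2 its adjusted p was 0.121 to 0.203, at log2 fold changes of 0.28 to 0.35.

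In the TGF-beta and PDGF pathways 15 of 16 listed genes were tested, and 5 rose and 3 fell, at a median of 0.13 (16.7% of all genes called). Pdgfa, the ligand of the receptor PDGFRα, was at 106, 126, 138 and 144 CPM in smooth muscle cells and 49.9, 39.3, 42.0 and 39.3 CPM in comparison cells, without overlap (1.70 ± 0.12, adjusted p = 6.25e-05). Pdgfc, a second ligand of that receptor, rose by 1.20 ± 0.14 (adjusted p = 0.00085) and Tgfb3 by 1.12 ± 0.12 (adjusted p = 0.00051). The receptors did not pass the test. Pdgfra was at 47.4, 103, 87.0 and 121 CPM in smooth muscle cells and 69.3, 89.9, 77.6 and 73.7 CPM in comparison cells, higher in 3 of 4 libraries (0.31 ± 0.15, adjusted p = 0.211). Without LI replicate 1 it passed, at 0.42 (adjusted p = 0.0373). Pdgfrb, a receptor of mural cells and fibroblasts, was at 52.9, 22.5, 10.6 and 21.8 CPM against 32.6, 33.7, 32.0 and 51.9 CPM (-0.87 ± 0.26, adjusted p = 0.0595). It was higher in smooth muscle cells of LI replicate 1 only, and without that library it was called lower (-1.08, adjusted p = 0.0048).

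Tgfb2, a TGF-beta ligand, was at 73.2, 8.61, 15.2 and 13.0 CPM in smooth muscle cells and 42.7, 49.8, 69.0 and 80.4 CPM in comparison cells. Here too LI replicate 1 was opposite to the other libraries. The log2 fold change was -1.98 ± 0.41 (adjusted p = 0.0131) with all libraries and -2.38 (adjusted p = 1.72e-05) without LI replicate 1. Leaving out any other library gave log2 fold changes of -1.78 to -1.63 with an adjusted p of 0.0604 to 0.136. Leaving out cells of other types gave an adjusted p of 0.0712. Tgfbi, an extracellular protein induced by TGF-beta, fell by 0.51 ± 0.06 (adjusted p = 0.000879), and Ltbp1, which binds latent TGF-beta, fell by 0.46 ± 0.12 (adjusted p = 0.0382). The call of Ltbp1 was lost without SI replicate 1 or SI replicate 2 (-0.27 and -0.42, adjusted p = 0.172 and 0.154).

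Genes of the WNT and Notch pathways moved in both directions. Of 22 tested WNT genes (30 listed) 3 rose and 4 fell, at a median of -0.01, against 16.7% called in either direction over all genes. Leaving out cells of other types, 2 of 21 rose and 2 fell. Nkd1, a feedback inhibitor of WNT signalling, rose by 1.33 ± 0.12 (adjusted p = 0.000236) and Wnt5a, a non-canonical ligand, by 0.64 ± 0.11 (adjusted p = 0.00476), while Wnt5b fell by 0.63 ± 0.10 (adjusted p = 0.00475). Of 13 tested Notch genes (16 listed) Jag1 alone rose, by 1.25 ± 0.15 (adjusted p = 0.00112). This Notch ligand was at 29.8, 55.2, 33.0 and 53.2 CPM in smooth muscle cells and 6.55, 19.9, 17.7 and 27.7 CPM in comparison cells, without overlap. Of the 3 Notch genes that fell, Mfng, a glycosyltransferase that modifies Notch, fell by 5.91 ± 0.29 (adjusted p = 1.4e-05), at 0 to 0.319 CPM in smooth muscle cells. Mfng was under the filter on low counts once cells of other types were left out. Notch2 (-0.39) and Hey1 (-1.25) were the others. They lost their call without SI replicate 1 (adjusted p = 0.221 and 0.0802) or without SI replicate 2 (0.364 and 0.195), and Notch2 also without LI replicate 2 (0.0961). In these fits Notch2 was at -0.44 to -0.26 and Hey1 at -1.41 and -0.79.

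**Figure D3:**
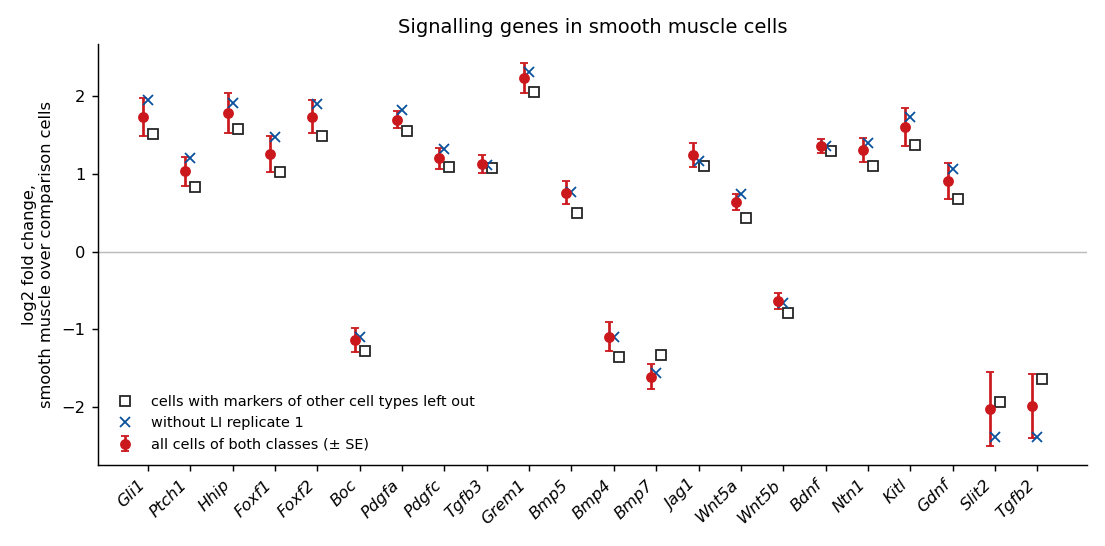
Log2 fold change of signalling genes, smooth muscle over comparison cells, from edgeR over 4 libraries (circles, ± SE), with cells carrying markers of other types left out (squares) and without LI replicate 1 (crosses). Of the genes drawn, Gli1, Ptch1, Hhip, Foxf1, Foxf2, the PDGF ligands and Grem1 lie above 0 and Bmp4, Bmp7, Slit2 and Tgfb2 below 0 in all 3 fits.

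Secreted cues for enteric neural cells were also measured, since the neural crest cells of the gut migrate through this mesenchyme. Of 16 genes tested 4 rose and 1 fell, at a median of 0.35, while 6.43% of all genes rose and 10.3% fell. Kitl, the ligand of the receptor KIT of interstitial cells of Cajal, was at 10.8, 30.2, 41.8 and 52.9 CPM in smooth muscle cells and 11.4, 13.9, 14.2 and 10.5 CPM in comparison cells. It was level in LI replicate 1 and higher in the other 3 libraries (1.6 ± 0.24, adjusted p = 0.00334). Bdnf, a neurotrophin, was at 37.9, 31.8, 60.9 and 53.9 CPM against 14.8, 15.4, 24.1 and 19.5 CPM, without overlap (1.35 ± 0.09, adjusted p = 5.93e-05). Ntn1 (netrin, an axon guidance cue) rose by 1.31 ± 0.15 (adjusted p = 0.000883).

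Gdnf, the ligand that draws neural crest cells into the gut (chr15:7810846-7837575), was at 63.7, 75.8, 53.4 and 59.6 CPM in smooth muscle cells and 64.1, 61.2, 17.5 and 25.5 CPM in comparison cells. It rose by 0.91 ± 0.23 (adjusted p = 0.0295). Comparison cells were lower in SI, and the class difference was larger in SI than in LI by 1.20 ± 0.17 on the log2 scale (interaction, adjusted p = 0.014). The class call of Gdnf was lost without SI replicate 1 (0.65, adjusted p = 0.158), without SI replicate 2 (0.79, adjusted p = 0.0945) and with cells of other types left out (0.68, adjusted p = 0.0803). Slit2, a repulsive guidance cue, was at 54.2, 17.2, 7.02 and 10.4 CPM against 26.8, 52.9, 33.5 and 97.7 CPM (-2.02 ± 0.47, adjusted p = 0.0222). LI replicate 1 was opposite to the rest, as for Tgfb2, and the log2 fold change without it was -2.38 (adjusted p = 0.00115). For Slit2, leaving out any other library gave log2 fold changes of -2.15 to -1.33 with an adjusted p of 0.0665 to 0.171, and leaving out cells of other types gave 0.059.

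Matrix and adhesion genes moved in both directions. Of 30 tested basement membrane and integrin genes 11 rose and 5 fell, at a median of 0.12, and of 31 tested genes of the interstitial matrix 7 rose and 5 fell, at a median of -0.08, with 16.7% of all genes called. With cells of other types left out, 4.98% of all genes were higher and 5.32% lower. In that fit 9 basement membrane and integrin genes rose and 4 fell. Of the interstitial matrix 5 rose and 9 fell, at a median of -0.23. Itgb1, the β1 integrin for which all cells had been sorted, rose by 0.61 ± 0.05 (adjusted p = 0.00021), and so did Lims1 (0.85 ± 0.07, adjusted p = 0.000125) and Fermt2 (0.82 ± 0.07, adjusted p = 0.00021), whose products PINCH1 and kindlin-2 act at integrin adhesions. Itga8, an integrin α chain of gut mesenchyme, was at 12.2, 17.6, 16.5 and 19.3 CPM in smooth muscle cells and 22.1, 33.5, 36 and 51.2 CPM in comparison cells. Its groups did not overlap, and it fell by 1.10 ± 0.10 (adjusted p = 0.000236). Col18a1 (-1.29 ± 0.12, adjusted p = 0.00028) and Col4a6 (-1.52 ± 0.20, adjusted p = 0.00149), both basement membrane collagens, fell.

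In the interstitial matrix the collagen VI chains rose, Col6a1 by 0.80 ± 0.07 (adjusted p = 0.000153) and Col6a2 by 0.73 ± 0.09 (adjusted p = 0.00101), as did fibrillin (Fbn1, 0.58 ± 0.06, adjusted p = 0.000661). Fbln1 (-0.40), Fbln2 (-1.85) and Ogn (osteoglycin, -2.11) fell. The chains of collagen I, named after their values were seen, moved in opposite directions. Col1a1 was at 239, 309, 204 and 314 CPM in smooth muscle cells and 68.1, 128, 122 and 258 CPM in comparison cells (1 ± 0.19, adjusted p = 0.0098), and it was not called with cells of other types left out (0.87, adjusted p = 0.0502). Col1a2 was at 94.9, 80.3, 61.3 and 74.0 CPM against 114, 236, 92.6 and 188 CPM (-1 ± 0.17, adjusted p = 0.00585). In the fibroblast marker list, which holds both, 1 of 6 genes rose and 2 fell, with 16.7% of all genes called. None of the 6 rose and 2 fell with cells of other types left out.

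**Figure D4:**
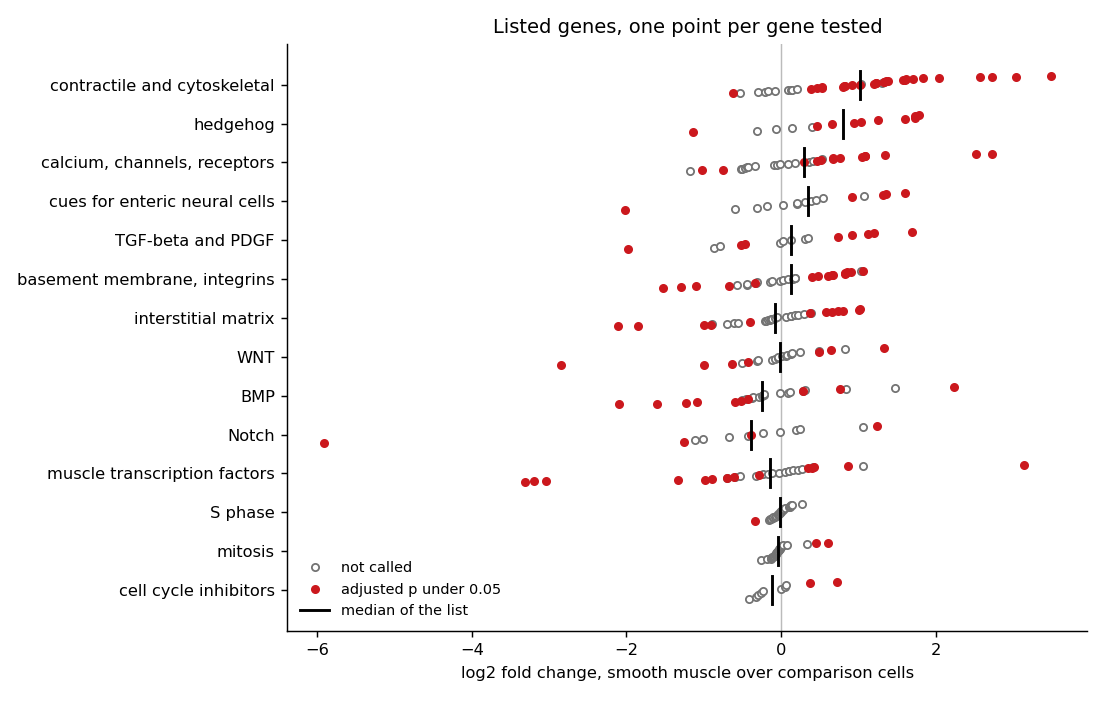
Log2 fold change of each tested gene of 14 lists (smooth muscle over comparison cells, x axis), red where the adjusted p was under 0.05, with the median of the list as a bar. The contractile list has its median at 1.02 and the hedgehog list at 0.80, and the S phase and mitosis lists lie close to 0.

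The interstitial cell of Cajal list shares its origin in gut mesenchyme with smooth muscle. Of its 4 genes 2 rose in smooth muscle cells and none fell, where 6.43% of all genes rose and 10.3% fell. Ano1, the chloride channel of these pacemaker cells, was at 37.9, 69.9, 48.3 and 57.9 CPM against 33.1, 41.2, 31.2 and 25 CPM (0.85 ± 0.14, adjusted p = 0.00414), and Gpr20 rose by 1.31 ± 0.19 (adjusted p = 0.00284). Kit, their defining receptor, was at 47.4, 81.2, 17.3 and 31.2 CPM in smooth muscle cells and 33.9, 66.2, 27.1 and 37.2 CPM in comparison cells, higher in both LI libraries and lower in both SI libraries (-0.04 ± 0.16, adjusted p = 0.922). The interaction of region and class was not called for Kit (-0.77, adjusted p = 0.138).

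The genes with the highest fold changes downward were mostly genes of enteric neurons. Gal (galanin), Tubb3, Cartpt, Rtn1, Gap43, Elavl4, Uchl1, Cadm1 and Kif5c had log2 fold changes of -8.04 to -2.24. For Gap43, a growth cone protein, comparison cells had 64.3, 121, 215 and 212 CPM and smooth muscle cells 5.81 to 10.3 CPM. With cells of other types left out, Gap43 stood at -1.19 (adjusted p = 0.0118) and Uchl1 at -0.60 (adjusted p = 0.0339), Rtn1, Cadm1 and Kif5c were no longer called (adjusted p = 0.25, 0.0536 and 0.996), and Gal, Tubb3, Cartpt and Elavl4 were left out or under the filter. Igfbp5, a binding protein of insulin-like growth factors, kept its size. It was at 153, 188, 42.0 and 55.5 CPM in smooth muscle cells and 439, 802, 191 and 375 CPM in comparison cells, without overlap, and fell by 2.16 ± 0.15 (adjusted p = 6.64e-05), or 2.37 with cells of other types left out. Hoxd4, a positional gene whose exons share bases with those of Hoxd3, fell by 2.73 ± 0.43 (adjusted p = 0.00374), or 1.11 with those cells left out.

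Cell cycle genes were compared with a background of 6.43% of all genes higher and 10.3% lower. Of 25 genes of S phase none rose and Rrm2 alone fell (-0.33 ± 0.09, adjusted p = 0.0427), at a list median of -0.02. Without LI replicate 2, SI replicate 1 or SI replicate 2 its adjusted p was 0.0735 to 0.201, at log2 fold changes of -0.39 to -0.32. Of 29 genes of mitosis Anln (0.61 ± 0.14, adjusted p = 0.0188) and Ckap2 (0.45 ± 0.12, adjusted p = 0.0379) rose and none fell, at a median of -0.04, and both calls were lost when any of those 3 libraries was left out (adjusted p 0.0687 to 0.2), with log2 fold changes of 0.50 to 0.63 for Anln and 0.38 to 0.44 for Ckap2. Mki67, a proliferation antigen, was at 129, 162, 198 and 185 CPM in smooth muscle cells and 183, 164, 219 and 194 CPM in comparison cells (-0.09 ± 0.08, adjusted p = 0.518). Of 10 tested inhibitors of the cell cycle (12 listed) Gadd45a (0.73 ± 0.12, adjusted p = 0.00491) and Btg1 (0.37 ± 0.07, adjusted p = 0.00967) rose. Btg1 was not called without SI replicate 1 (0.33, adjusted p = 0.0713). Cdkn1c, which encodes p57, was at 898, 957, 711 and 1201 CPM against 819, 1046, 1238 and 1546 CPM (-0.25 ± 0.13, adjusted p = 0.235).

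Phase calls on cells thinned to 3000 UMIs placed 58.3%, 50%, 72.0% and 52.7% of smooth muscle cells in S or G2M phase. For comparison cells the shares were 69.5%, 53.3%, 76.1% and 57.3%. Smooth muscle cells were lower in 4 of 4 libraries, by 5.76 percentage points on average (SD 3.62), and the libraries differed from each other by more than the classes did. An exact paired permutation test gave p = 0.13 (rounded), the smallest value that 4 pairs allow. The mean difference was -4.32 percentage points without thinning and -3.16 with cells thinned to 2000 UMIs, where LI replicate 2 differed by -1.28. Thinning left out 11 of the 143 smooth muscle cells in LI replicate 1 and 9 to 43 in the other libraries, and 808 comparison cells in LI replicate 1 and 37 to 124 in the others. The part of free RNA in these calls was not tested.

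Cells could also be ordered by how many of the 5 rule genes they held at 3000 UMIs, over all kept cells without Upk3b and Sox10. As these cells were grouped by the rule genes, the order is a description with no test. Tagln was at 264, 467, 791, 1122 and 1502 CPM in LI replicate 2 at 0, 1, 2, 3 and 4 or 5 genes, at 113, 242, 395, 654 and 1025 CPM in SI replicate 1, and at 179, 319, 633, 1074 and 1735 CPM in SI replicate 2. In LI replicate 1 it went from 214 CPM at 0 to 1746 CPM at 3 genes, and only 7 cells there held 4 or 5. The level was higher at each step in all 4 libraries.

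Myocd followed the same order, from 36 to 275 CPM in LI replicate 2, from 34.6 to 208 CPM in SI replicate 1 and from 23.2 to 240 CPM in SI replicate 2. In LI replicate 1 it was highest at 2 genes, at 126 CPM against 27.4 CPM at 0 and 95.2 CPM at 3. Foxf1 had already reached 627, 567 and 523 CPM at 2 genes in the other 3 libraries and ended at 644, 678 and 673 CPM. Itga8 went from 31.1 to 16.2, from 38.7 to 13.9 and from 50.5 to 12.1 CPM, and Pdgfrb from 32.7 to 16.2, from 30.4 to 9.72 and from 50.7 to 7.77 CPM. In LI replicate 1 Pdgfrb went from 34.1 CPM at 0 genes to 15.9 CPM in the 42 cells with 3, and stood at 47.6 CPM in the 7 cells with 4 or 5. At full depth Pdgfrb was higher in smooth muscle than in comparison cells of that library. There Itga8 went from 20.7 CPM at 0 genes to 31.7 CPM in its 42 cells with 3 genes, and Foxf1 from 343 CPM at 2 genes to 222 CPM at 3. Top2a, a gene of dividing cells, went from 337 to 150, from 484 to 294 and from 359 to 215 CPM. Cells with 4 or 5 rule genes thus held lower levels of Top2a than cells with none in all 3 libraries with over 20 such cells.

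**Figure D5:**
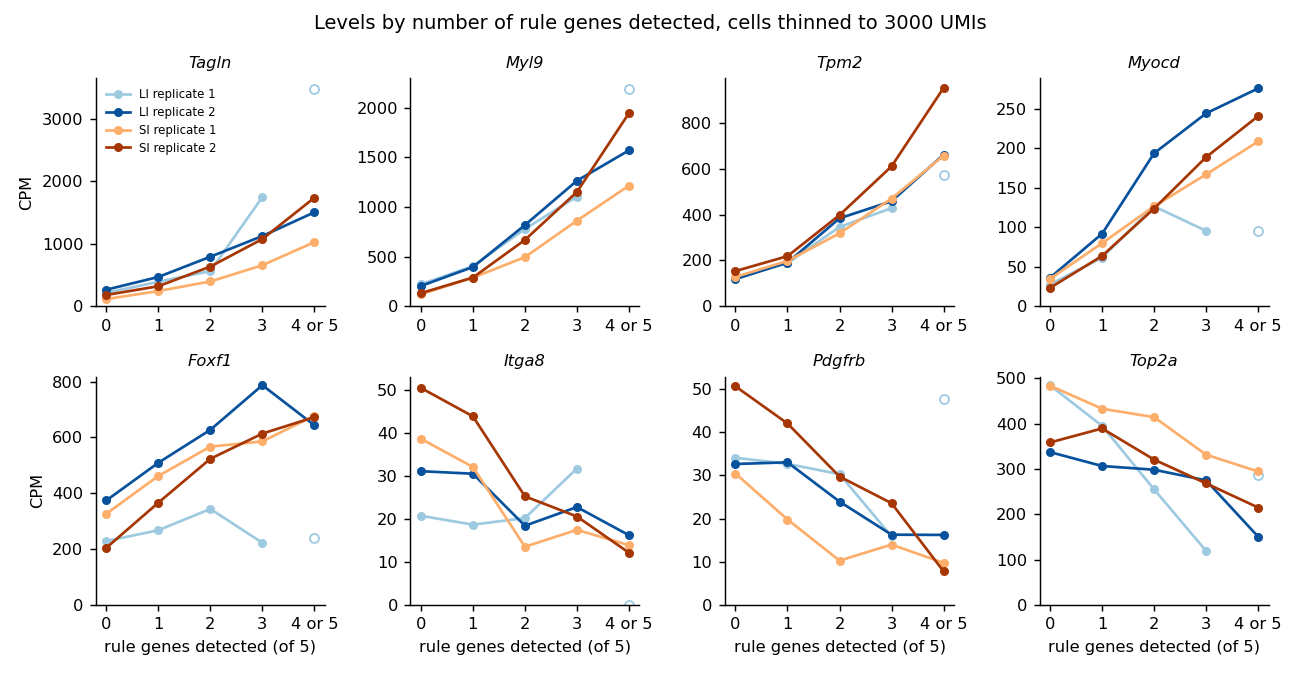
Level (CPM, y axis) of 8 genes by the number of the 5 rule genes detected (x axis) in cells thinned to 3000 UMIs, one line per library. Open points rest on 7 cells of LI replicate 1. Tagln, Myl9 and Tpm2 are higher at each step in the lines drawn, and Top2a at 3 genes lies below its level at 0 genes in every library.

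Between the regions, smooth muscle cells differed in 103 of the 12592 tested genes (0.818%). Of these genes 29 (0.23%) had the higher level in SI and 74 (0.588%) the higher level in LI, each region having 2 libraries. The positional genes Hoxd11 (248 and 178 CPM in LI, 0 and 1.24 CPM in SI) and Hoxa10 (97.6 and 146 CPM against 0 and 0.992 CPM), which pattern the hindgut, had the highest fold changes toward LI, with adjusted p = 0.000843 for each. Epha7, an ephrin receptor (75.9 and 124 CPM in LI, 26.0 and 22 CPM in SI), Igfbp5 and Sema6a, a transmembrane semaphorin, were also higher in LI. Hoxa4 (1.36 and 4.47 CPM in LI, 96.2 and 42.3 CPM in SI), Pkdcc, Grem1, Sfrp1, a secreted WNT antagonist, and Aldh1a2, the retinaldehyde dehydrogenase of gut mesenchyme, were higher in SI. In comparison cells Igfbp5 was also higher in both LI libraries and Grem1 in both SI libraries. The edgeR interaction of region and class was not called for Igfbp5 (-0.58, adjusted p = 0.357) or Grem1 (0.90, adjusted p = 0.416). Sfrp1 stood at 55.6 and 116 CPM in LI against 619 and 459 CPM in SI (2.66 ± 0.30, adjusted p = 0.00514), and Aldh1a2 at 39.3 and 105 CPM against 399 and 324 CPM (2.28 ± 0.34, adjusted p = 0.021). Sema6a was not called without SI replicate 1 (-1.24, adjusted p = 0.148).

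The regional genes named here, chosen for the largest fold changes, include none of the contractile list. How many contractile genes were among all genes called between regions was not counted. Tagln (-0.50 ± 0.36, adjusted p = 0.825), Myl9 (-0.15 ± 0.28, adjusted p = 0.966), Myocd (-0.05 ± 0.27) and Gli1 (-0.10 ± 0.20) did not pass the test between regions, with standard errors that leave room for differences of either sign. LI replicate 1, the shallow library, supplied 1 of the 2 LI values, and the call count was 242 without it and 350 without LI replicate 2.

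The class difference itself differed between regions for 71 of 13023 genes (0.545%), 37 toward SI and 34 toward LI. Nrp2 (neuropilin, a semaphorin and VEGF receptor) was at 187, 288, 368 and 340 CPM in smooth muscle cells and 201, 254, 87.6 and 63.1 CPM in comparison cells (interaction 2.18 ± 0.16 on the log2 scale, adjusted p = 0.000195). Vcam1, an adhesion molecule, was higher in smooth muscle cells in LI (31.2 and 37.5 against 19.5 and 17.2 CPM) and lower in SI (4.08 and 6.31 against 8.21 and 23.9 CPM), an interaction of -2.59 ± 0.28 (adjusted p = 0.00485). Hoxd11 and Hoxa10 also had an interaction past the threshold. For both, SI replicate 2 held 16.7 and 17.4 CPM in comparison cells where SI replicate 1 held 0.0739 and 0 CPM, and without SI replicate 2 the interaction of Hoxd11 had an adjusted p of 1 and that of Hoxa10 could not be estimated.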

How the data were processed

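Droplet single-cell libraries (10x Genomics) of 4 stromal samples were used, and each sample's region and replicate number were read from its title. Some other labels of these samples speak of adult tissue, and the stage E12.5 follows the titles and the protocol. Per the labels, a 3′ or a 5′ kit had been used, with no kit given for any single library. The authors aligned reads to mm10 and counted UMIs with Cell Ranger (3.1.0 per the submitters' processing notes). The deposited values are raw UMI counts per gene and barcode for 28692 genes, without normalization, from 5151 to 6881 barcodes and 31630548 to 62886525 UMIs per library. The authors' later integration of the libraries (Seurat) was not used.

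The members of the class, the gene lists, the tests and the rule for named genes were chosen with earlier results of these data known. UMI counts were summed per library and class. Classes were compared with edgeR (4.0.16, R 4.3.3) quasi-likelihood tests, library as a block, TMM scaling and the default low-count filter, and regions without a block. P-values were adjusted by Benjamini-Hochberg over all genes tested, with calls at an adjusted p under 0.05. Standard errors are in log2 units. The library is the replicate. With library as a block, p-values of the classes reflect how far the class difference varied among the 4 libraries. Those of the regions reflect the spread between libraries of the same region. Doublets were scored with Scrublet in scanpy (1.11.5). Its automatic threshold marked 1 to 6 cells per library, which is too few, so the highest scores were removed as an alternative, at 0.8% per 1000 barcodes, and the main analysis removed none. Phases were called in scanpy on cells thinned to 3000 UMIs, with shallower cells left out. Intervals are 95% Wilson intervals. Shares were compared by exact permutation tests in SciPy (1.17.1).

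Named were the 12 genes with the largest fold change in each direction among those called that had a mean log2 CPM over 5 and 1 direction in all libraries, up to 3 called genes per list and direction with the smallest adjusted p, 19 genes always named, the 5 called genes per direction with the largest regional fold change and no overlap of regions, and 5 genes for the interaction, by smallest adjusted p. This gave 92 genes for the classes, of which the text describes most. A few genes that the rules or lists held are not reported here. Gpr20, Myl6, Cnn2 and Vcl are further list members. Positions are those of the GENCODE annotation of mm10, which held 28339 of the 28692 gene identifiers. Promoter windows are from RefSeq. Exonic overlap was checked on the same strand. Scripts were tested on simulated data. Alternatives were DESeq2 (1.42.0), its size factors, no filter, leaving out each library, stricter rules for the class, thinned cells, cells in G1, depth-matched comparison cells, doublet removal, other blocks, and, added after seeing the data, leaving out cells with at least 2 UMIs of another cell type's list.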

Additional observations from a re-analysis of the deposited data

Results flagged for a closer look

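Of the genes named for the classes or the interaction, 6 described here had a difference between smooth muscle and comparison cells that itself differed between SI and LI by the edgeR interaction test. The interaction, as SI minus LI on the log2 scale, was 1.20 for Gdnf and 2.18 for Nrp2, whose class difference lay further toward smooth muscle cells in SI. It was -3.26 for Hoxa10, -3.60 for Hoxd11, -2.33 for Hoxd4 and -2.59 for Vcam1. The interactions of Hoxa10 and Hoxd11 depended on SI replicate 2, as the comparison cells of SI replicate 1 held nearly no UMI of either gene. For Gdnf the smooth muscle levels of the 4 libraries lay within 53.4 to 75.8 CPM and for Nrp2 within 187 to 368 CPM. For Gdnf and Nrp2, the regions did not overlap in either class. The part of LI replicate 1, whose 143 smooth muscle cells were few and shallow, was examined only by leaving it out.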

How the results depend on the processing

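Counts of called genes moved with the settings. For smooth muscle against comparison cells, 2178 genes were called, against 1425 with cells thinned to 3000 UMIs, 1300 with cells of other types left out and 677 with no replicate block (no library term). Leaving out 1 library gave 1065 to 2972 genes. Between regions 103 genes were called, against 432 with no filter on low counts, 44 with at least 3 of the 5 rule genes required, and 43 with Acta2 at 20 UMIs per 10000. Leaving out 1 library gave 102 to 350. The interaction called 71 genes, against 415 with no filter, 44 with at least 3 of 5 genes, 34 with Acta2 at 20, 39 with depth-matched comparison cells, and 107 to 498 when 1 library was left out, 1 region then keeping a single library that is assumed to vary like the others. The cause of these shifts was not tested. The labels do not say that a replicate number marks a shared experiment. The replicate block gave 1652 genes for the classes and 271 between regions, and the replicate differences of SI and LI correlated at 0.12. Signs turned for 3 genes, of which Rrm2 had been called (-0.33, adjusted p = 0.0427). Kit was at -0.21 to 0.18 without 1 library (0.18 without SI replicate 1 and 0.06 without SI replicate 2), 0.0057 with DESeq2, 0.22 in G1 cells and 0.13 with no replicate block. Mki67 was at 0.31 and Rrm2 at 0.0094 in G1 cells. Of the 92 genes named for the classes 87 were called, and 40 kept the call and direction in every alternative fitted. The regional difference in the share of smooth muscle cells kept its sign, at 21.0 to 36.6 percentage points without 1 library. The 143 smooth muscle cells of LI replicate 1 limit what low genes can show there.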
